A study of Homo sapiens with 6 samples.

Results

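The COPII coat is represented here by 10 genes: the GTPases SAR1A and SAR1B, the inner coat paralogs SEC23A and SEC23B, the cargo adaptors SEC24A, SEC24B, SEC24C and SEC24D, and the outer coat subunits SEC13 and SEC31A. They were taken by gene symbol, and the family was chosen by the counts of SEC23A, which were lower after PELP1 knockdown in this same comparison. All 10 of 10 symbols were among the 23228 listed, and all 10 passed the filter on low counts that left 12796 tested genes. The cells were MDA-MB-231, a human triple-negative breast cancer line, in 3 libraries of cells that stably expressed a control non-targeted shRNA and 3 libraries of cells that stably expressed a PELP1 shRNA (PELP1-KD). Both groups were selected with puromycin and grown in RPMI with 10% FBS. The knockdown rested on a single PELP1 shRNA, as far as the labels tell. The labels do not state that replicates were separate cultures or selections, so p-values measure the spread between these libraries, which may be technical.

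COPII vesicles carry newly made proteins out of the endoplasmic reticulum (ER). SAR1 with GTP bound inserts into the ER membrane and recruits the SEC23-SEC24 dimer, in which SEC23 stimulates the GTPase of SAR1 and SEC24 binds cargo. SEC13 and SEC31 then assemble into the outer cage. Because SEC23 and SEC24 act as a dimer and each has paralogs, the question was whether SEC23B and the other subunits offset the lower level of SEC23A.

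Promoter sequence is shown for 3 members because the same letters lie within a few bases of the start in genes that behaved differently. The windows come from RefSeq on GRCh38.p14, run 5′ to 3′ on the gene's strand from 90 bases before the start through 10 bases from it, and have TGACGT, or ACGTCA where it lies on the other strand, in capitals. TGACGT is the core of the cyclic AMP response element, which CREB and ATF family factors bind. The window of SEC23A is chr14:39103226-39103325 on the minus strand, that of SEC23B is chr20:18507458-18507557 on the plus strand, and that of SAR1A is chr10:70170505-70170604 on the minus strand. The RefSeq starts of SEC23A, SEC23B and SAR1A used here each lie inside the gene as GENCODE draws it.
SEC23A: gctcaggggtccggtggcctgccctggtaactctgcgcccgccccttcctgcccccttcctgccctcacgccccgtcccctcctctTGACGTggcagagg
SEC23B: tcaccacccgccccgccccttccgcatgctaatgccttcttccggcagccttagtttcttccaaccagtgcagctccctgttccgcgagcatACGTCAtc
SAR1A: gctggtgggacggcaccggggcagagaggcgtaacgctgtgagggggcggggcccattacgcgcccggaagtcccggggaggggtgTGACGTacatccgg

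With the start base as 0, the match began at base -4 in SEC23A, base 2 in SEC23B and base -4 in SAR1A. SEC23B had another RefSeq window, not shown, which held no match. SEC23A was lower in PELP1-KD cells, SEC23B rose and SAR1A did not pass the test. A match of letters is a description and was not tested as a binding site. All windows of 250 bases before to 50 bases after a start were searched on both strands. TGACGT was in 7.98% of 35116 windows and in 7 of the 14 windows of the 9 members with an entry. By gene, it was in 6 of these 9. Windows of the same gene can share bases, so they are not independent units. TGACGT was in SEC24A, SEC24C and SEC13 as well, and in no window of SEC24B, SAR1B or SEC31A. The E-box CACGTG, which shares the letters ACGTG with TGACGTG, was in SEC24A alone (1 of 14 windows, against 7.26% of all). The ER stress response element (ERSE) was in 0 of 14 windows, against 0.0769% of all. With so rare a motif, 14 windows are too few to show a difference, so nothing is read from this 0.

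The counts on genes ranged from 17304864 to 23132102 per library, and 32.5% to 32.9% of the reads had more than a single alignment and were counted on no gene. PELP1, the target of the shRNA, had 968, 1274 and 1069 counts in the control libraries, given here and elsewhere in the order of their replicate numbers, and 557, 637 and 712 in the knockdown libraries, a log2 fold change (log2FC) of -0.97 (SE 0.055) or a change of -48.9%. The mesenchymal genes VIM, CD44, AXL and CAV1 were abundant, while ESR1 and PGR had 0 to 2 counts, as did the hepatocyte marker ALB. The leukocyte marker PTPRC was at 0, the epithelial cadherin CDH1 had 0 to 4 counts and the endothelial marker PECAM1 had 2 to 7. EPCAM, the other epithelial marker, was detected at 158 to 263 counts. ERBB2 was not absent, with 1930 to 2727 counts.

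SEC23A (ENSG00000100934, chr14:39031919-39109646 on GRCh38, minus strand) encodes one form of the SAR1-activating inner coat subunit. It had 3475, 4521 and 3561 counts in the control libraries and 1561, 1649 and 1765 in the PELP1-KD libraries. In CPM, counts scaled to the library size after TMM adjustment, these were 205, 199 and 200 in control and 80.1, 77.3 and 75.0 in PELP1-KD. The groups lay far apart, and the spread within each was small. The mean was 202 ± 3.40 CPM in control and 77.4 ± 2.55 CPM in PELP1-KD (SD, n = 3 each), a change of -61.6%, with a log2FC of -1.38 (SE 0.039). Since this difference chose the family, it is given without a test, and in bulk RNA fewer cells with the transcript and less RNA per cell cannot be told apart. Of the 12796 tested genes, 81 had a lower log2FC than SEC23A. A share of 2.41% of the 50-base windows of its exons also occurred elsewhere in the transcript annotation, and SEC23A-AS1 on the other strand shares 452 of its exonic bases, where reads cannot be told apart without strand.

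SEC23B (ENSG00000101310, chr20:18507482-18561415 on GRCh38, plus strand), the other SEC23 form and the gene mutated in congenital dyserythropoietic anaemia type II, rose. Its counts were 2313, 3043 and 2294 in control and 2947, 3227 and 3442 in PELP1-KD. Its CPM values were 137, 134 and 129 in control and 151, 151 and 146 in PELP1-KD, so each PELP1-KD library was above each control library. The mean went from 133 ± 3.82 to 150 ± 2.88 CPM, 12.2% higher, with a log2FC of 0.17 (SE 0.038, adjusted p = 0.00117 by edgeR's quasi-likelihood test). The 95% interval of the change ran from 6.21% to 18.5%.

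The rise of SEC23B was small beside the loss of SEC23A. SEC23A was lower by 124 CPM (SE 2.45), and SEC23B was higher by 16.3 CPM (SE 2.76), which is 13.1% of that loss (SE 2.24). Per transcript length, as CPM per kilobase of the longest coding transcript (RPKM), the loss was 29.5 and the gain 4.67, or 15.8% (SE 2.71). With the length of all exons joined in place of that transcript, the share was 26.7% (SE 4.57), since SEC23A has 8945 bases of joined exons beside 4215 in its longest coding transcript, and SEC23B has 4385 beside 3484. Without TMM scaling, by library totals, it was 17.7% on the CPM scale.

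The sum of the SEC23 paralogs was 335 ± 6.50 CPM in control and 227 ± 5.19 CPM in PELP1-KD, a change of -32.2%, with a log2FC of -0.56 (SE 0.032). This value contains SEC23A and is a description. In RPKM the sum was 86.1 ± 1.72 in control and 61.3 ± 1.37 in PELP1-KD, a change of -28.8%. The order of the paralogs turned around: SEC23A to SEC23B was 1.25 in control and 0.428 in PELP1-KD by RPKM, and SEC23B was 44.4% of the sum in control and 70.0% in PELP1-KD. That SEC23A stood above SEC23B in control holds for reads, where the ratio was 1.51, and for the longest coding transcript. It does not hold with all exons joined, where SEC23A was at 22.5 and SEC23B at 30.4 RPKM in control and at 8.66 and 34.1 RPKM in PELP1-KD, so the order within control cells depends on the length used, while the lower ratio in PELP1-KD does not.

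**Figure D1:**
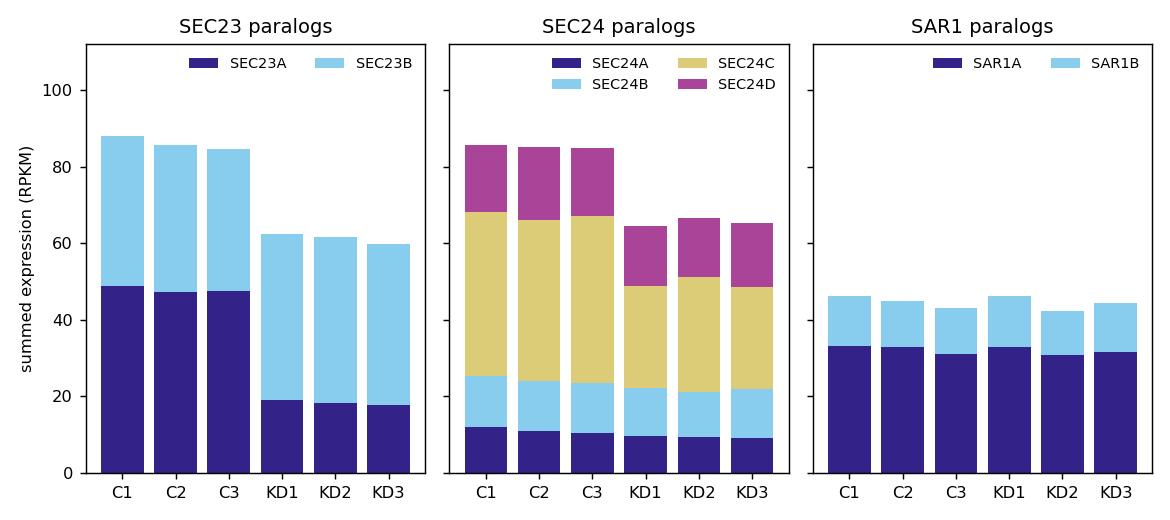
Summed expression of the SEC23, SEC24 and SAR1 paralogs in each library (RPKM by the longest coding transcript; C1 to C3 are the control libraries, KD1 to KD3 the PELP1-KD libraries, and each coloured segment is 1 gene). The SEC23 sum is 86.1 on average in control and 61.3 in PELP1-KD because the SEC23A segment shrinks more than the SEC23B segment grows, the SEC24 sum goes from 85.2 to 65.4 with most of the loss in SEC24C, and the SAR1 bars stay at similar heights.

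The SEC24 adaptors, which select cargo and differ in the sorting signals they bind, did not move upward. Of these 4 genes, SEC24A, SEC24C and SEC24D fell and SEC24B did not pass the test. SEC24C (ENSG00000176986, chr10:73744384-73772161 on GRCh38, plus strand) had 194, 190 and 197 CPM in control and 121, 135 and 120 CPM in PELP1-KD. The groups were far apart, and replicate 2 was the highest of the PELP1-KD libraries. Its mean was 193 ± 3.63 CPM in control and 125 ± 8.25 CPM in PELP1-KD, a change of -35.2%, with a log2FC of -0.63 (SE 0.043, adjusted p = 2.26e-10 by edgeR). In the GENCODE annotation an antisense transcript, AC022400.8, shares 2293 exonic bases with SEC24C. No count of it was analysed here and the strand setting of the counting is not given in the sources used here, so reads of the pair cannot be told apart.

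SEC24A had 74.7, 68.4 and 66.4 CPM in control and 61.1, 58.8 and 57.5 CPM in PELP1-KD. It fell by 15.4%, with a log2FC of -0.24 (SE 0.052, adjusted p = 7.18e-04 by edgeR). SEC24D had 70.7, 76.4 and 71.8 CPM in control and 62.9, 62.4 and 67.1 CPM in PELP1-KD. It fell by 12.1%, with a log2FC of -0.19 (SE 0.049, adjusted p = 0.00374 by edgeR). For both genes the lowest control library was above the highest PELP1-KD library. SEC24B had 67.8, 66.8 and 65.5 CPM in control and 63.7, 60.3 and 64.6 CPM in PELP1-KD. These values did not overlap either, but the log2FC of -0.08 (SE 0.048) had an adjusted p of 0.153 by edgeR, and the 95% interval of the change ran from -11.9% to 1.03%. The 95% interval of the log2FC of SEC24C, from -0.71 to -0.54, did not overlap those of the other 3 adaptors, of which the lowest bound was -0.35.

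The SEC24 sum fell by 22.7%, from 403 ± 3.68 to 311 ± 4.27 CPM, with a log2FC of -0.37 (SE 0.029, adjusted p = 2.03e-09 by edgeR's quasi-likelihood test on the table with the sums added). By RPKM it was 85.2 ± 0.474 in control and 65.4 ± 1.02 in PELP1-KD. SEC24C made up 50.1%, 49.4% and 51.4% of it in control and 41.4%, 44.9% and 40.9% in PELP1-KD, and the shares of the other 3 were each higher in every PELP1-KD library than in every control library. SEC24B went from 15.4% to 18.9%, SEC24D from 21.3% to 24.3% and SEC24A from 13.0% to 14.3%. Shares of a sum are tied, so the 4 shares are not independent. None of these 3 genes had a higher mean CPM in PELP1-KD, and their shares rose because SEC24C fell more. An exact two-sided permutation test gave p = 0.1 for each of these 4 shares (0.1 after adjustment over the 4), which is the smallest p that 3 against 3 allows. By RPKM, SEC23 to SEC24 was 1.03, 1.01 and 0.997 in control and 0.966, 0.928 and 0.916 in PELP1-KD. This ratio contains SEC23A and is a description. Its direction depends on the lengths used. With all exons joined the log2 ratio of PELP1-KD to control was -0.31 for the SEC23 sum and -0.40 for the SEC24 sum.

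The SAR1 GTPases showed no detected change. SAR1A had 198, 196 and 186 CPM in control and 197, 185 and 189 CPM in PELP1-KD, with a log2FC of -0.022 (SE 0.038, adjusted p = 0.657 by edgeR). SAR1B, the form mutated in chylomicron retention disease, had 87.0, 80.6 and 81.1 CPM in control and 88.4, 76.7 and 85.1 CPM in PELP1-KD, with a log2FC of 0.0094 (SE 0.052, adjusted p = 0.895 by edgeR). The groups overlapped in both genes. The 95% interval of the change was -6.71% to 3.99% for SAR1A and -6.67% to 8.56% for SAR1B, and that of the SAR1 sum was -5.98% to 4.54%. SAR1B shares 385 exonic bases with SEC24A on the other strand in GENCODE, where reads of the pair cannot be told apart without strand, although SEC24A fell and SAR1B did not pass the test.

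The outer coat subunits also showed no detected change. SEC13, which is also a nuclear pore component, had 183, 193 and 189 CPM in control and 186, 194 and 184 CPM in PELP1-KD, with a log2FC of -0.0049 (SE 0.036, adjusted p = 0.923 by edgeR) and an interval of the change from -5.39% to 4.98%. SEC31A had 250, 252 and 243 CPM in control and 247, 235 and 236 CPM in PELP1-KD, with a log2FC of -0.06 (SE 0.033, adjusted p = 0.183 by edgeR) and an interval from -8.31% to 0.995%. The groups overlapped in both genes. As a description, since it contains SEC23A, the RPKM sum of SEC13 and SEC31A over that of SEC23 and SEC24 was 0.995, 1.05 and 1.03 in control and 1.37, 1.37 and 1.36 in PELP1-KD. In GENCODE, SEC31A shares 482 exonic bases on the same strand with THAP9-AS1, and SEC13 shares 206 on the other strand with GHRLOS.

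**Figure D2:**
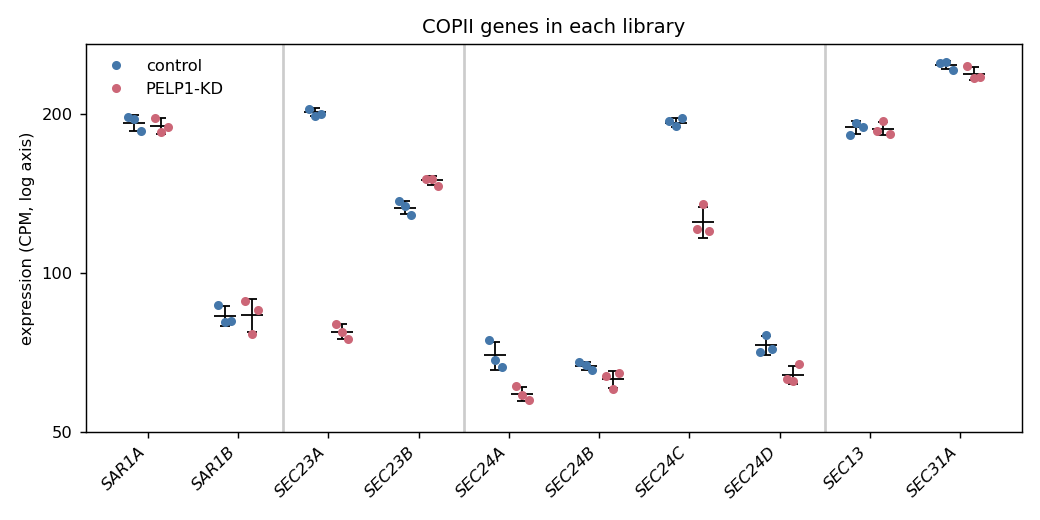
Expression of the 10 COPII genes in each library (CPM on a log axis; points are libraries, blue for control and red for PELP1-KD, and the black bars are the mean ± SD of 3). SEC23A goes from 202 to 77.4 CPM and SEC24C from 193 to 125, SEC23B is slightly higher in PELP1-KD, and the groups overlap for SAR1A, SAR1B, SEC13 and SEC31A.

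Of the 9 COPII genes other than SEC23A, 3 were called lower at an adjusted p below 0.05 (SEC24A, SEC24C and SEC24D), where 24.2% of all tested genes were, and 1 was called higher (SEC23B), where 22.7% were. None of these 9 had a log2FC below -1 as well, where 1.34% of tested genes did. The groups did not overlap for 5 of the 9 genes, 4 lower and 1 higher, where 55.0% of tested genes did not overlap. SEC23A is left out of these counts because it chose the family, and nothing is read from these shares. As a description, since it contains SEC23A, the median log2FC was -0.07 over the 10 genes, and it was 0.0014 over all tested genes.

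**Figure D3:**
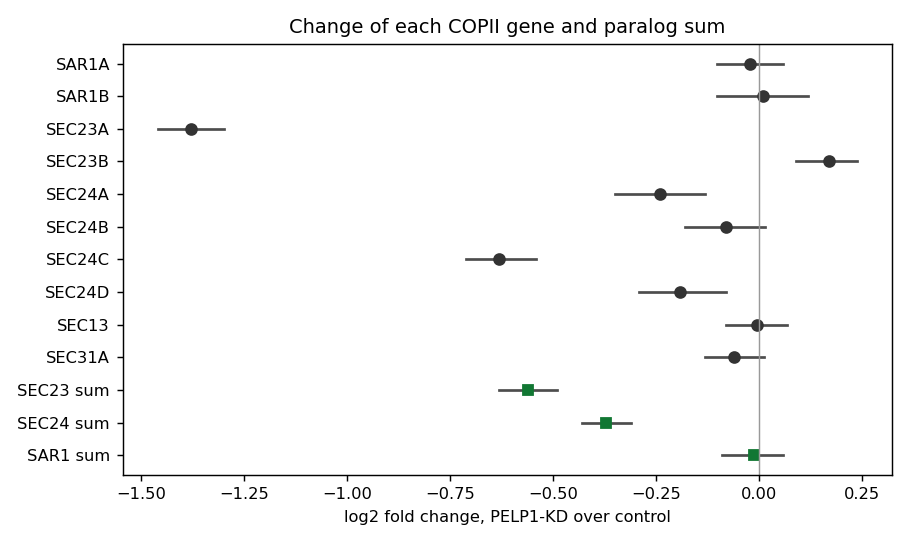
The log2 fold change of each COPII gene (circles) and of the paralog sums (green squares), PELP1-KD over control, with its 95% interval as a bar. SEC23A and the SEC23 sum are drawn as descriptions without a test, since SEC23A chose the family. Their bars are drawn too but are not read against 0, for the same reason. Among the others, the interval lies below 0 for SEC24A, SEC24C, SEC24D and the SEC24 sum and above 0 for SEC23B. It lies across 0 for the remaining genes and the SAR1 sum.

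The order of levels per length also changed. In control cells SEC13 was highest at 118 RPKM, followed by SEC31A at 58.3, SEC23A at 47.8, SEC24C at 42.8, SEC23B at 38.2 and SAR1A at 32.3. SEC24D at 18.1, SEC24B at 13.1, SAR1B at 12.4 and SEC24A at 11.1 RPKM came last, and the libraries of SEC24B and SAR1B overlapped, so that these neighbours did not differ beyond their spread. In PELP1-KD cells SEC23B at 42.9 RPKM came next after SEC31A, while SEC24C at 27.8 and SEC23A at 18.4 RPKM stood below SAR1A at 31.8. This order depends on the transcript lengths used.

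Of 13 organisers and regulators of ER exit sites, 4 fell (30.8%), 3 rose (23.1%) and 6 did not pass the test, with a median log2FC of -0.055 over the list. These shares were near those of all tested genes, 24.2% lower and 22.7% higher. Among those that fell were CUL3, the ubiquitin ligase scaffold that acts on SEC31 (-0.16, adjusted p = 0.00469 by edgeR), its calcium-binding cofactor PEF1 (-0.15, adjusted p = 0.0154) and SEC16A, the scaffold of the exit site (-0.14, adjusted p = 0.00714). PREB, the exchange factor that loads SAR1 with GTP, rose from 95.6 ± 2.73 to 119 ± 5.38 CPM, a log2FC of 0.31 (adjusted p = 5.50e-06 by edgeR). KLHL12, the substrate adaptor of CUL3 for SEC31, rose by a log2FC of 0.16 (adjusted p = 0.00876), and MIA3, which helps load collagen, by 0.14 (adjusted p = 0.0457). SEC31B, the minor paralog of SEC31A, was low at 5.47 ± 0.403 CPM in control and 5.52 ± 0.436 CPM in PELP1-KD. TFG (-0.09, adjusted p = 0.0875) and SEC23IP, which binds SEC23 (-0.06, adjusted p = 0.342), did not pass the test. By library totals in place of TMM, 1 gene of this list was called lower and 3 higher.

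Of the 22 cargo receptors that travel in COPII vesicles, 10 fell (45.5%), 3 rose (13.6%) and 9 did not pass the test, where 24.2% of all tested genes were lower and 22.7% higher. The median log2FC of the list was -0.035. LMAN1, the lectin that carries coagulation factors V and VIII with MCFD2, fell from 232 ± 14.5 to 160 ± 5.04 CPM, a log2FC of -0.53 (adjusted p = 1.76e-09 by edgeR). TMED2, a p24 family receptor, fell from 482 ± 8.12 to 347 ± 5.08 CPM, a log2FC of -0.47 (adjusted p = 4.55e-11 by edgeR). Of the 8 p24 genes, 4 fell, TMED2 with TMED5 (-0.20), TMED7 (-0.47) and TMED10 (-0.32), which were named after their values were seen, and 2 rose. TMED3 rose by a log2FC of 0.24 (adjusted p = 5.00e-04) and TMED4 by 0.17 (adjusted p = 0.00752). By library totals the split was 9 lower and 6 higher.

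Among 16 tethers and SNAREs that dock the vesicles at the Golgi, 3 fell (18.8%), 4 rose (25.0%) and 9 did not pass the test, with a median log2FC of 0.01. These shares were near the 24.2% and 22.7% of all tested genes. The tether USO1 (-0.24, adjusted p = 7.72e-05 by edgeR) and the SNARE BET1 (-0.21, adjusted p = 0.00581) fell, and YIF1A (0.23, adjusted p = 5.85e-04) and the TRAPP subunit TRAPPC3 (0.21, adjusted p = 0.00146) rose.

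The COPI coat, which carries proteins back from the Golgi to the ER, was lower in 4 of 9 genes (44.4%) and higher in 1 (11.1%), against 24.2% and 22.7% of all tested genes. The other 4 did not pass the test, and the median log2FC was -0.094. COPB1 fell from 369 ± 9.83 to 297 ± 2.76 CPM (-0.31, adjusted p = 6.76e-08 by edgeR) and COPA by a log2FC of -0.19 (adjusted p = 2.85e-04). The gene that rose, COPZ2, was at 0.852 ± 0.0550 CPM in control and 1.60 ± 0.192 CPM in PELP1-KD (0.91, adjusted p = 0.00385), a minor paralog next to COPZ1 at 198 CPM in control. By library totals 3 COPI genes were called lower and 3 higher.

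CREB3 family factors can raise COPII genes in secretory cells, and the ER stress genes report on folding load. Of 20 such genes, 8 fell (40.0%), 4 rose (20.0%) and 8 did not pass the test, where 24.2% of all tested genes were lower and 22.7% higher. The median log2FC was -0.035, and by library totals 6 fell and 5 rose. CREB3L2, for which SEC23A is a known target in cartilage, fell from 133 ± 2.00 to 101 ± 1.17 CPM (-0.40, adjusted p = 3.85e-08 by edgeR), and its relative CREB3L1 rose by a log2FC of 0.15 (adjusted p = 0.0255). A link of either factor to the level of SEC23A in these cells was not tested. The ER chaperone HSP90B1 fell from 1260 ± 39.6 to 942 ± 24.4 CPM (-0.42, adjusted p = 1.77e-10 by edgeR). SDF2L1, another ER chaperone component, rose from 24.1 ± 2.99 to 34.3 ± 0.393 CPM (0.51, adjusted p = 9.20e-06), and ERN1, the IRE1 sensor, by a log2FC of 0.42 (adjusted p = 0.00627). Without control replicate 2, or without PELP1-KD replicate 1, 2 genes of this list were called higher. Without control replicate 3, or without PELP1-KD replicate 3, 2 exit site genes were called lower.

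**Figure D4:**
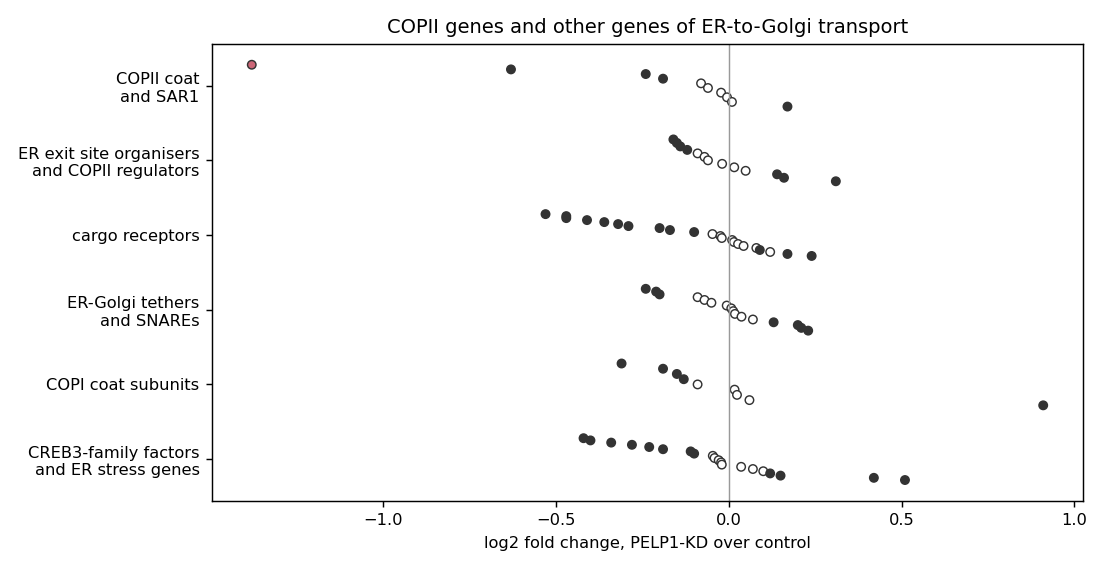
The log2 fold change of each tested gene in the COPII family and in the lists of ER-to-Golgi transport, PELP1-KD over control (each point is 1 gene; filled points have an adjusted p below 0.05, open points do not, and SEC23A is red because it chose the family and has no test). SEC23A lies at -1.38 and SEC24C at -0.63, and the lowest genes of the other lists lie between -0.16 and -0.53.

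The 3 nearest tested genes on each side of SEC23A on chromosome 14 differed in direction. On one side, GEMIN2, a splicing assembly factor, had a log2FC of 0.29 (adjusted p = 0.00206 by edgeR), TRAPPC6B, a TRAPP subunit, -0.15 (adjusted p = 0.0214) and PNN, a nuclear speckle protein, -0.27 (adjusted p = 2.30e-06). On the other side, MIPOL1 had -0.16 (adjusted p = 0.254) and NKX2-1 0.023 (adjusted p = 0.924). The nearest tested gene there, FOXA1, a luminal transcription factor, was close to the detection limit, with 11, 26 and 20 counts in control and 7, 0 and 5 in PELP1-KD. It passed the filter on low counts only through the control libraries, so no fold change or test is given for it.

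The genes whose profile over the 6 libraries lay nearest to that of SEC23A, by Euclidean distance of centred log2 CPM, were FLRT2 (0.143), C5orf43 (0.147), DUSP4 (0.150), GPR56 (0.154) and GXYLT1 (0.161). Their log2FC values lay between -1.45 and -1.35, beside -1.38 for SEC23A, which follows from the choice by distance. No COPII gene was among these 5, and the next lowest COPII log2FC was -0.63 for SEC24C. The likeness is a description and was not tested.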

How the data were processed

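RNA-seq libraries were stranded, made from poly(A) mRNA and sequenced as single 50-base reads. The authors deposited raw read counts per gene symbol for each library, without normalization. The submitters' processing notes name bcl2fastq, TopHat2, SAMtools, HTSeq and hg19, and the strand setting is not given in the sources used here. Closing totals of unassigned reads (no feature 7.64% to 8.19%, ambiguous 0.657% to 0.688%, not unique 32.5% to 32.9%) stayed out of library sizes. Multiply aligned reads were counted on no gene, so genes with near copies are counted low.

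Counts were filtered with filterByExpr (minimum 10), scaled by TMM and tested with the quasi-likelihood test of edgeR 4.0.16 in R 4.3.3, with Benjamini-Hochberg adjustment over 12796 genes. The SE was obtained from each log2FC and the F statistic. Lengths came from GENCODE 29 on GRCh38 for 21536 of 23228 symbols, of which 19746 were joined by symbol and 1790 by an older symbol or synonym. Coordinates come from that annotation, not from the count tables. Promoters came from RefSeq. Figures were drawn with matplotlib in Python 3.11.15. On simulated counts, 190 of 197 genes changed by a log2FC of 1 were recovered, and 79 of 197 changed by 0.2. Replicates of a group differed by a chi-square per degree of freedom of 1.46 to 3.99. A count of 3 was taken as the floor, 0.130 to 0.173 CPM, which covers counting error only.

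Members and gene lists were chosen with earlier results of these data known. Genes were named by rule: all members, PELP1, in each list the 2 largest significant falls and rises, SEC31B, SEC16A, PREB, TFG, MIA3, SEC23IP, CREB3L1 and CREB3L2, the 3 nearest tested genes on each side of SEC23A, and the 5 nearest profiles. Marker genes were listed to check the cell line, and COPZ1 and MCFD2 were added as background. Of the lists, CNIH1, COPG1 and MIA2 were listed as CNIH, COPG and CTAGE5. Alternatives were RLE size factors, library totals, DESeq2 1.42.0, voom in limma 3.58.1, other filters, a replicate block and leaving out each library. RPKM with all exons joined was added after seeing the data.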

Additional observations from a re-analysis of the deposited data

How the results depend on the processing

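The calls of the 9 COPII genes other than SEC23A, which has no test, held under RLE size factors, library totals, DESeq2, voom, both other filters, the replicate block and the omission of each library. With a threshold of 1 on the log2FC added, 0 COPII genes were higher and none of these 9 was lower, so their calls did not hold there. The count of 1 lower gene in that setting is SEC23A alone. It follows from the choice of the family by SEC23A, so it cannot test how stable the result is and nothing is read from it. By library totals, which moved the median log2FC of all genes from 0.0014 to 0.051, SEC23A was at -1.33, the SEC23 sum at -0.51, and the uncalled values turned sign to 0.037 for the SAR1 sum, 0.028 for SAR1A and 0.044 for SEC13. There the gain of SEC23B was 17.7% of the SEC23A loss, 3 COPI genes and 6 cargo receptors were higher, and 1 exit site gene was lower. The SEC23 sum was -0.49 by RPKM and -0.31 with all exons joined, where the SEC24 sum was -0.40 and the share was 26.7%. The causes were not tested beyond the construction of each setting. Leaving out each library in turn gave -0.04 to 0.021 for the SAR1 sum, -0.05 to 0.0011 for SAR1A, -0.03 to 0.07 for SAR1B and -0.026 to 0.012 for SEC13, none called. The genes called higher in the CREB3 and ER stress list numbered 2 to 4 and those called lower at exit sites 2 to 4, with 2 reached without control replicate 2 or PELP1-KD replicate 1 in the first case and without control replicate 3 or PELP1-KD replicate 3 in the second. The replicate numbers did not pair the samples (correlations of 0.039, 0.065 and -0.078). With the number as a block, SEC23B had a log2FC of 0.17 and an adjusted p of 2.02e-04 by edgeR, and no call on these 9 genes changed. Small changes were often missed on simulated counts, where 40.1% of genes changed by a log2FC of 0.2 were recovered. Those genes were drawn from all tested genes, with 1 dispersion for all. The COPII genes lay at percentiles 67.3 to 93.6 of expression among tested genes, so the share is not a recovery rate for them.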
